A study of Homo sapiens with 15 samples.

Results

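Differences between replicate numbers were measured in HepG2, a human hepatocellular carcinoma line, as replicate 2 against replicate 1 of every flame retardant treatment. Cultures with the same number are called a round below, and the word stands for the number alone. The 8 libraries, out of 15 in the series, were chosen by the replicate number in their titles: 4 treated libraries numbered 2 and 4 treated libraries numbered 1, joined in pairs by treatment. The treatments were 72 h of tris(2-chloroethyl) phosphate (TCEP) at 25 or 250 µM and of tris(2-chloroisopropyl) phosphate (TCIPP) at 2.5 or 25 µM, with 1 library of each number per treatment. The 4 treated libraries numbered 3 and the 3 libraries of cells given 0.1% DMSO, the solvent, are set beside them. Per the labels' protocols, every culture of a triplicate was seeded, grown, treated and extracted separately from HepG2 cells (ATCC HB-8065) kept to a maximum of 25 passages, after 72 h of acclimatization in serum-containing medium. All 15 libraries are thus of 1 cell line. The labels do not say whether a replicate number marks a passage, day, plate, library preparation or sequencing run shared across treatments. If it does, each side of the comparison holds 1 of these.

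HepG2 cells keep much of the hepatocyte programme, such as the secretion of albumin, apolipoproteins and clotting factors, and they divide in culture. Several programmes in such cells are known to answer to the state of the culture itself. Hypoxia-inducible factors raise glycolytic enzymes, glucose transporters and VEGFA when oxygen at the cell falls. YAP with its TEAD partners raises CTGF, CYR61 and ANKRD1 in spread, sparse cells, and NRF2 raises aldo-keto reductases, glutathione enzymes and thioredoxin-system genes under oxidants and electrophiles.

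Libraries numbered 2 held 5353963 to 9049712 exon reads and libraries numbered 1 held 7114238 to 10547776, and the replicate 2 library was the smaller in 4 of 4 pairs (exact paired permutation test, at the smallest 2-sided p that 4 pairs allow, which is above 0.05). Libraries numbered 3 held 8890426 to 26771751. Intron reads made up 8.26 ± 0.433% of gene reads in replicate 2 and 8.31 ± 0.445% in replicate 1 (SD, n = 4 each), and mitochondrial genes took 6.50 ± 0.619% and 6.23 ± 0.472% of exon reads. Hepatocyte markers fit the label in all 12 treated libraries: ALB ran from 13592 to 21149 CPM (exon read counts scaled to library size), SERPINA1 from 7444 to 9552 CPM and HNF4A from 206 to 227 CPM. The fibroblast genes COL3A1 and DCN and the leukocyte gene PTPRC were at 0 reads in all 12. Other members of those marker lists were not at 0. LYZ, on the leukocyte list, ran from 3975 to 4809 CPM and CD68 from 21.9 to 48.7 CPM. The summed fibroblast and stellate markers ran from 50.6 to 68.6 CPM.

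Treated cultures that shared a replicate number deviated from their groups together. For each library the deviation of every gene from the mean of its treatment group was taken, and these deviations were correlated over 11901 genes. Treated libraries of different groups with the same number correlated at 0.185 to 0.358 (18 pairs, median 0.320), and those with different numbers at -0.292 to 0.0354 (36 pairs, median -0.164). Replicate 2 had the highest median and the narrowest range of the numbers, with 6 correlations of 0.326 to 0.343 (median 0.329). Replicate 1 had 0.221 to 0.331 (median 0.262). Replicate 3 had the widest range, 0.185 to 0.358 (median 0.239), and the highest single value. Same-number correlations between DMSO and treated libraries were lower, 0.00573 to 0.182 (12 pairs). Different-number correlations between them ran from -0.235 to 0.0928 (24 pairs), so the ranges overlap. DMSO replicate 2 had 0.00573 to 0.0777 with the treated replicate 2 libraries, and DMSO replicate 1 had more with each of those, 0.0615 to 0.0928. Pearson correlations over genes are given as a description: genes are not independent, and the deviations of 1 group sum to 0 by construction.

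**Figure D1:**
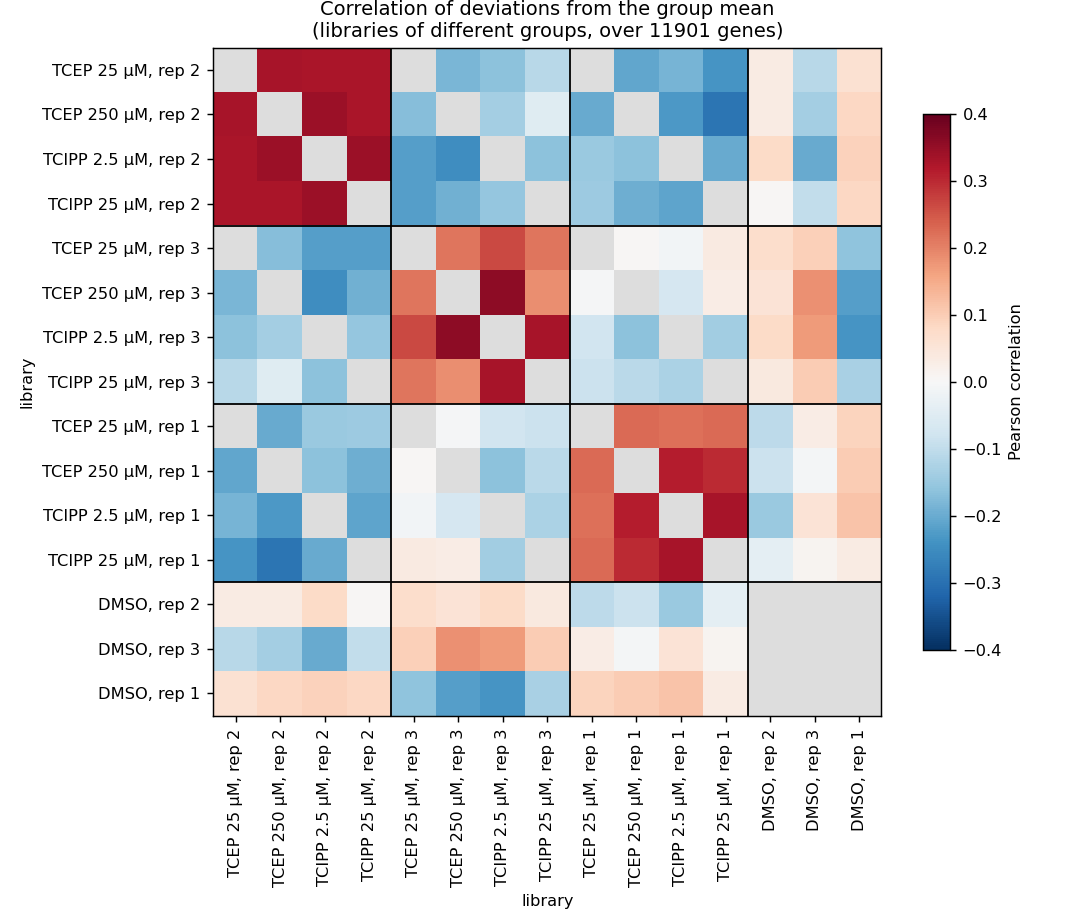
Pearson correlation between libraries of their gene-wise deviations from their own group mean, over 11901 genes; grey cells are pairs within a group. The blocks of treated libraries that share a number are red (0.185 to 0.358), the blocks between numbers mostly blue, and the cells of the DMSO libraries at the right and bottom are paler.

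Replicate 2 differed from replicate 1 in many genes, by small amounts. Of 11901 genes tested, 2315 passed an adjusted p under 0.05 (19.5%) in edgeR's quasi-likelihood test with Benjamini-Hochberg adjustment and treatment as a block. Of these, 1158 were higher in replicate 2 (9.73% of genes tested) and 1157 were lower (9.72%). Their median absolute log2 fold change was 0.26, 341 reached 0.5 and 56 reached 1. In 2230 of the 2315 (96.3%) all 4 pairs had the same sign, which the test itself favours; over all genes tested the share was 38.8%. The values of the 4 libraries numbered 2 did not overlap with those of the 4 numbered 1 in 1391 genes (11.7%). List counts below stand beside the shares over all genes tested, 9.73% higher and 9.72% lower. In the top quartile by mean CPM those shares were 19.6% and 16.0%. Without the TCEP 250 µM pair fewer genes were called, 1371 or 1332 depending on which of its libraries was left out, and 717 were called when the DMSO libraries joined the fit.

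Replicate 3 lay between the others for some measures and apart for others. Its mean was between those of replicates 2 and 1 in 1667 of the 2315 genes (72.0%), and it was nearer to replicate 1 in 1332 (57.5%); genes chosen for a gap between replicates 2 and 1 favour such a place. On the second principal component of the 12 treated libraries (13.7% of the variance) replicate 3 stood apart, at 9.96 to 14.1, against -13.9 to -0.742 for replicate 2 and -10.6 to 1.22 for replicate 1. In the fit of all 12 treated libraries, 1801 of 12371 genes were called for replicate 3 against replicate 1 (14.6%; 7.58% higher and 6.98% lower) and 2320 for replicate 3 against replicate 2 (18.8%; 8.96% higher and 9.79% lower); these comparisons share libraries with the main one. For replicate 3 against replicate 1 the count was 858 or 771 without TCIPP 2.5 µM replicate 1 or 3, and 1121 or 1014 without TCIPP 25 µM replicate 1 or 3. For replicate 3 against replicate 2 it was 1506 or 1515 without TCIPP 2.5 µM replicate 2 or 3, and 1543 without TCIPP 25 µM replicate 2. Some difference among the 3 numbers was called in 3604 genes (29.1%), beside 1773 genes (14.3%) for any difference among the 4 treatments. Per gene, the replicate number held a median of 31.5% of the variation over the 12 treated libraries, treatment 31.1% and the remainder 29.0%. These medians rest on 2, 3 and 6 degrees of freedom. A source with more of them takes a larger share even where nothing differs, so the medians do not compare effects. Of the 2315 genes, 924 (39.9%) were also called for treatment, which is 52.2% of the 1769 treatment calls among the genes of both fits.

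The steepest single difference was in SLC6A12, which encodes the plasma membrane carrier of the osmolyte betaine (build hg19, chromosome 12, 299243 to 323736, minus strand). Across TCEP 25 and 250 µM and TCIPP 2.5 and 25 µM it had 0.787, 2.85, 2.70 and 7.53 CPM in replicate 2, against 6.28, 22.1, 8.74 and 53.1 CPM in replicate 1. Every treatment had the lower value in replicate 2, although the groups as a whole overlap because the higher concentration of each compound had more SLC6A12 RNA in both rounds. The log2 fold change was -2.68 ± 0.168 (SE; edgeR adjusted p = 2.34e-08). Replicate 3 had 4.13, 10.6, 4.16 and 12.1 CPM, between the others in all 4 treatments. The DMSO cultures had 9.39 CPM in replicate 2, against 23.8 CPM in replicate 1, and 35.1 CPM in replicate 3. The limit of detection, taken as 3 reads, was 0.332 to 0.560 CPM in these replicate 2 libraries.

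Other carriers in the list of amino acid and ion carriers were mostly lower too: of 21 tested members 9 fell, 4 rose, and the median log2 fold change was -0.14, beside 0.00 over all genes. The pair medians ran from -0.29 to 0.02, with the TCEP 250 µM pair at 0.02, and the count of members that rose was 2 without either TCIPP 2.5 µM library. SLC6A6, the taurine carrier, had a mean of 53.5 CPM in replicate 2 and 76.3 CPM in replicate 1 (log2 fold change -0.52, edgeR adjusted p = 2.71e-06). SLC6A14, a broad amino acid carrier that is not on that list and is named for its size, was at 33.5 and 73.6 CPM (log2 fold change -1.12). The creatine carrier SLC6A8 went the other way, at 285 and 236 CPM (log2 fold change 0.26). AKR1B1, aldose reductase, which makes the osmolyte sorbitol, was at 49.8 CPM in replicate 2 and 65.9 CPM in replicate 1 (log2 fold change -0.39, edgeR adjusted p = 0.000874); it is set beside the osmolyte carriers after its values were seen.

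Among genes higher in replicate 2, IGFBP3 (hg19 chromosome 7, 45951949 to 45961473, minus strand), a secreted binder of insulin-like growth factors, had the smallest p. Its levels in TCEP 25 and 250 µM and TCIPP 2.5 and 25 µM were 174, 81.5, 174 and 86.9 CPM in replicate 2, against 83.9, 36.5, 80.2 and 36.8 CPM in replicate 1. Replicate 2 was thus about as far above replicate 1 in each treatment, while the lower concentration of each compound had more IGFBP3 RNA in both rounds. The log2 fold change was 1.12 ± 0.0477 (SE; edgeR adjusted p = 2.59e-10). Replicate 3 stood at 104, 52.8, 110 and 38.0 CPM. DMSO, with 66.7 CPM in replicate 2 and 30.4 CPM in replicate 1, gave a log2 difference of 1.13.

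Of 13 tested members of the insulin-like growth factor system, 5 rose in replicate 2 and 0 fell. The median log2 fold change was 0.06, and 7 of the 13 had a positive value. Between 1 and 6 were called higher and 0 to 1 lower over the main and alternative fits. IGF2, the fetal growth factor that HepG2 makes in quantity, averaged 6697 CPM in replicate 2 and 4141 CPM in replicate 1 (log2 fold change 0.68, edgeR adjusted p = 1.11e-07), with 70.5% of its exon reads unique to 1 place. IGFBP6 averaged 8.86 and 5.32 CPM, and IGFBP1, a liver-secreted binder, 2585 and 2257 CPM. Their log2 fold changes were 0.73 and 0.19. In DMSO the difference of replicate 2 minus replicate 1 had the same sign in these 3 genes, at 0.57, 0.49 and 0.42 on the log2 scale.

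ANKRD1, CYR61 and CTGF, textbook targets of YAP and TEAD, were higher in replicate 2 of the treated cultures. ANKRD1, a nuclear ankyrin repeat protein (hg19 chromosome 10, 92671853 to 92681033, minus strand), had 169, 137, 144 and 116 CPM in replicate 2 and 94.0, 69.3, 79.8 and 44.8 CPM in replicate 1, in the order of treatments used above. The ranges did not overlap (log2 fold change 0.98 ± 0.0642 SE, edgeR adjusted p = 3.51e-08), and replicate 3 lay between them at 81.5 to 122 CPM. In DMSO the values lay together: ANKRD1 had 96.3 CPM in replicate 2, 95.7 CPM in replicate 1 and 91.0 CPM in replicate 3. CYR61, a matrix-associated signalling protein, averaged 103 ± 26.1 CPM in replicate 2 and 54.9 ± 18.9 CPM in replicate 1 (SD, n = 4 each), and its DMSO difference was -0.01 on the log2 scale. CTGF, its relative, averaged 736 ± 69.1 and 500 ± 102 CPM, with a DMSO difference of -0.02. Of 27 tested members of the YAP and TEAD list, 9 rose and 2 fell. IGFBP3, given above, is also on this list. The list's median log2 fold change was 0.08, and 17 members had a positive value. Its pair medians ran from 0.0014, in TCIPP 25 µM, to 0.15. Over the main and alternative fits 2 to 9 members were called higher and 1 to 2 lower. The receptor AXL was among those that rose (log2 fold change 0.62), and the ectonucleotidase NT5E (-0.36) and the scaffold AJUBA (-0.22) were those that fell.

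ANKRD1 differed between rounds in treated cultures while its DMSO values lay together. DMSO has 1 such pair, and the labels do not say whether its numbers match those of the treated cultures. The 250 bases before the ANKRD1 start are shown. They come from RefSeq's GRCh38.p14 table (chr10:90921088-90921337, minus strand, 5′ to 3′), and capitals mark the TEAD core GGAATG or its reverse complement CATTCC.
ANKRD1: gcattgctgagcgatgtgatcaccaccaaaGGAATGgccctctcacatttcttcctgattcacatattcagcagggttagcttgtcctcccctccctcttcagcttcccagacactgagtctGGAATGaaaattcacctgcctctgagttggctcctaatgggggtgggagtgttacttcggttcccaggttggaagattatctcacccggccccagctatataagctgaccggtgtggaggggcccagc
The core occurred at 2 places here. In the same window it was found on either strand in at least 1 promoter of 3902 of 27305 genes of that table (14.3%), and in 10 of the 17 tested list members that had an entry. Members were put on the list as YAP and TEAD targets, so their share does not bear on the replicates.

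Genes of the hypoxia response rose together more than those of any other list of 10 or more tested members: 20 of 32 tested members were higher in replicate 2, 0 were lower, and the median log2 fold change was 0.29. The 4 pairs gave medians of 0.23 to 0.28. The glucose transporter SLC2A3 (hg19 chromosome 12, 8071826 to 8088871, minus strand) had 1349, 1020, 1476 and 1089 CPM in replicate 2, against 978, 680, 1009 and 669 CPM in replicate 1. All replicate 2 values were above all of replicate 1, narrowly (log2 fold change 0.57 ± 0.0359 SE, edgeR adjusted p = 2.34e-08). ERO1L, an oxidase of protein folding in the endoplasmic reticulum (hg19 chromosome 14, 53106634 to 53162618, minus strand), had 565, 424, 525 and 403 CPM in replicate 2, against 389, 277, 354 and 276 CPM in replicate 1. The rounds did not overlap (log2 fold change 0.56 ± 0.0332 SE, edgeR adjusted p = 1.59e-08).

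Further members covered secretion, glucose use and hydroxylation. ADM, the vasodilator adrenomedullin, averaged 50.9 CPM in replicate 2 and 30.2 CPM in replicate 1 (log2 fold change 0.75), VEGFA, the angiogenic factor, 392 and 308 CPM (0.34), and the prolyl hydroxylase EGLN3 68.2 and 48.9 CPM (0.47). PDK1, the kinase that holds back pyruvate dehydrogenase, averaged 136 ± 13.8 and 103 ± 11.4 CPM, with a log2 fold change of 0.39. CA9, carbonic anhydrase 9, had 85.5, 56.6, 96.2 and 57.8 CPM in replicate 2, against 67.7, 42.7, 77.8 and 54.8 CPM in replicate 1. It was higher in each treatment with overlapping ranges (log2 fold change 0.28 ± 0.0573 SE, edgeR adjusted p = 0.00256). Replicate 3 gave a median of 0.12 over replicate 1 with 14 of 32 members higher and 0 lower, and a median of -0.13 against replicate 2. The DMSO median of replicate 2 minus replicate 1 was 0.06. With the DMSO libraries in the fit 16 members were called higher, with DESeq2 15, and with treatment not blocked 4.

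Promoters of members that moved together are shown for ERO1L (ERO1A in RefSeq) and PDK1, again the 250 bases before the start from RefSeq GRCh38.p14, 5′ to 3′, at chr14:52695559-52695808 on the minus strand and chr2:172555840-172556089 on the plus strand. The table holds a second PDK1 promoter, at chr2:172555123-172555372, with 0 matches, which is not printed. Capitals mark the core of the hypoxia response element, ACGTG or its reverse complement CACGT.
ERO1A: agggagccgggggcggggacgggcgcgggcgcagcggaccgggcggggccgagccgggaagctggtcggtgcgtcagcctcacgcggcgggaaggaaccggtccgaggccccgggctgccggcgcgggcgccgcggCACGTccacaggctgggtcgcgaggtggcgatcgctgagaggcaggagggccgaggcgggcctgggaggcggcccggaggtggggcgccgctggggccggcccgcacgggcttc
PDK1: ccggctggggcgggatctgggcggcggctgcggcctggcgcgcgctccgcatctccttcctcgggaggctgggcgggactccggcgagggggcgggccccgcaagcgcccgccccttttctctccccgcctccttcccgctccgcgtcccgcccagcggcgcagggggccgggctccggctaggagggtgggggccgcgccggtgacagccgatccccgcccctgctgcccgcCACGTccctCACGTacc
At least 1 promoter held the core in 17 of the 26 tested list members with an entry and in 11 of the 14 that were called higher, beside 5935 of 27305 genes (21.7%). Members were put on the list as hypoxia response genes, so a share above that of all genes does not bear on the replicates. A match describes these letters and is not a measured binding site.

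Glycolytic genes share PDK1, HK2, SLC2A3 and SLC2A1 with that list, of which the glucose transporter SLC2A1 did not pass (log2 fold change -0.02, edgeR adjusted p = 0.709): of 25 tested members 12 rose and 4 fell, with a median of 0.11. Without either TCEP 250 µM library 7 rose. The abundant enzymes moved little, with GAPDH at 4875 CPM in replicate 2 and 4318 CPM in replicate 1 (log2 fold change 0.16), LDHA at 3166 and 2741 CPM (0.20) and PGK1 at 1326 and 1148 CPM (0.20). Hexokinase isoforms went in opposite directions. HK2 averaged 754 ± 102 CPM in replicate 2 and 545 ± 87.0 CPM in replicate 1 (log2 fold change 0.47, edgeR adjusted p = 1.25e-07), and HK1 9.49 and 14.8 CPM (log2 fold change -0.61, edgeR adjusted p = 0.00236).

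**Figure D2:**
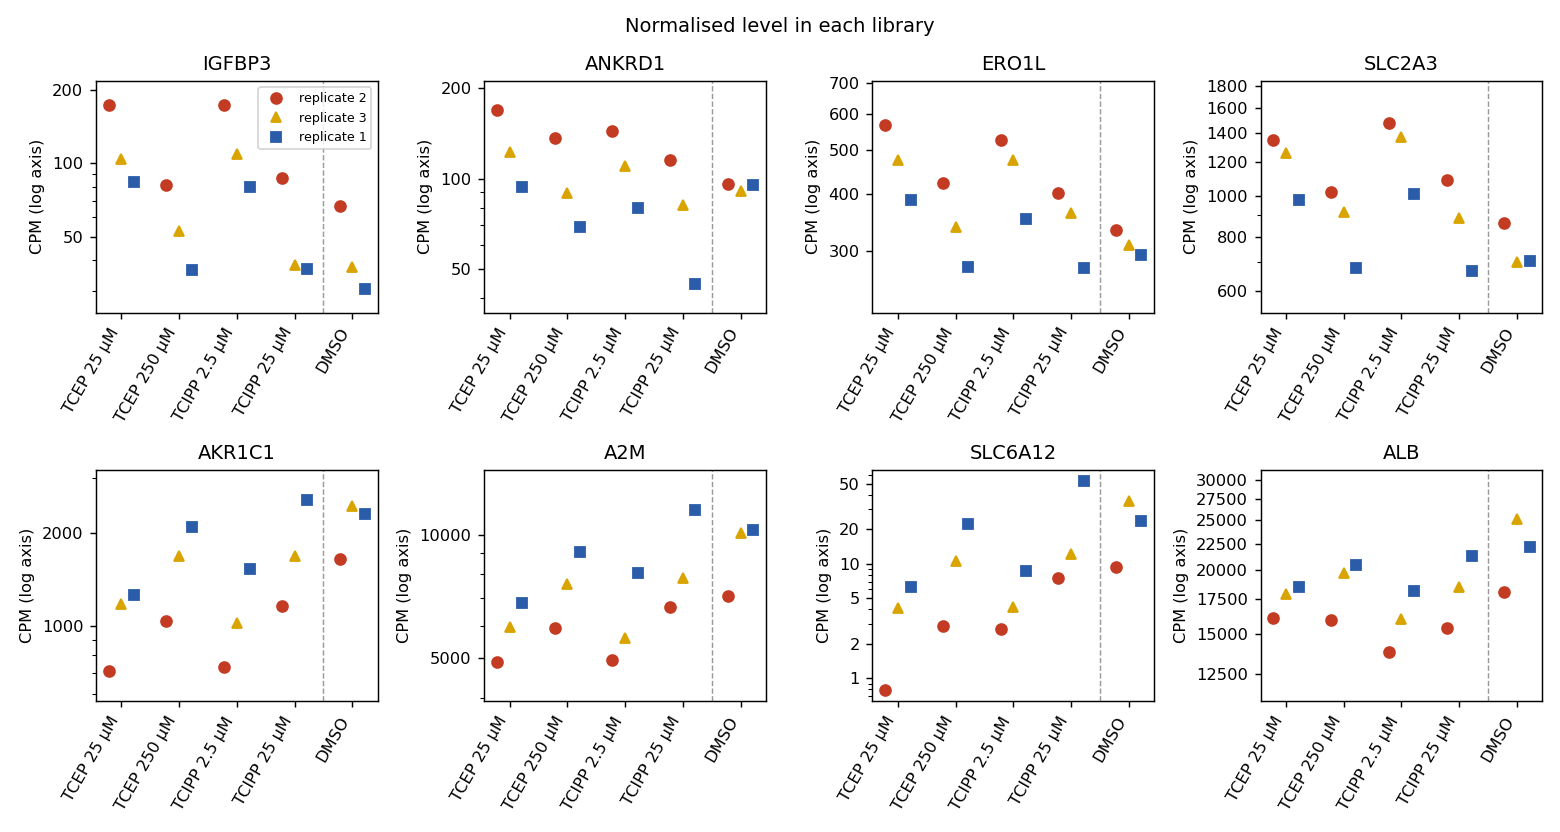
Normalised level (CPM, log axis) of 8 named genes in every library, by treatment, with replicate 2 as circles, replicate 3 as triangles and replicate 1 as squares; DMSO is right of the dashed line. IGFBP3, ANKRD1, ERO1L and SLC2A3 are highest in replicate 2 of each treatment, AKR1C1, A2M, SLC6A12 and ALB lowest.

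Cell division genes were higher in replicate 2 of the treated cultures but not of DMSO. Of 54 tested G2/M and mitosis genes 21 rose and 1, ECT2, fell, with a median of 0.18. Of 50 tested S phase and replication genes 14 rose and 0 fell, with a median of 0.17. RRM2, the ribonucleotide reductase subunit made in S phase, had 120, 112, 107 and 118 CPM in replicate 2, against 92.0, 78.5, 78.6 and 74.4 CPM in replicate 1. The rounds were apart in all 4 treatments (log2 fold change 0.49 ± 0.0495 SE, edgeR adjusted p = 3.77e-06). In DMSO RRM2 was lower in replicate 2, at 78.9 CPM against 95.8 CPM. HJURP, the centromere histone chaperone, averaged 50.9 CPM in replicate 2 and 33.5 CPM in replicate 1 (log2 fold change 0.60), CDK1, the mitotic kinase, 39.8 and 31.7 CPM (0.32), and MKI67, the proliferation marker, 133 ± 12.6 and 114 ± 7.41 CPM (0.21, edgeR adjusted p = 0.00408).

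The counts for these lists depended on the libraries and the fit. DMSO medians of replicate 2 minus replicate 1 were -0.13 for G2/M and -0.09 for S phase. With DMSO in the fit 2 G2/M and 1 S phase genes were called higher, and with DESeq2 7 and 3. Without the TCEP 250 µM pair the S phase count was 5 and the G2/M count 12; without TCIPP 25 µM they were 5 and 15, and without TCIPP 2.5 µM replicate 2 or 1 the S phase count was 7 or 8. The lists also parted in replicate 3: against replicate 1, 18 G2/M genes were higher and 0 lower, while 3 S phase genes were higher and 4 lower. In bulk RNA a larger share of dividing cells and more of this RNA per dividing cell cannot be told apart.

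Several aldo-keto reductases were lower in replicate 2, and the smallest p among genes that fell was in this family. AKR1C1, a ketosteroid and aldehyde reductase (hg19 chromosome 10, 4934796 to 5025475, plus strand), had 710, 1037, 732 and 1157 CPM in replicate 2, against 1252, 2081, 1527 and 2559 CPM in replicate 1. The rounds did not overlap, and within each round the higher concentration had more (log2 fold change -1.01 ± 0.0421 SE, edgeR adjusted p = 2.59e-10). Replicate 3 had 1177, 1684, 1018 and 1685 CPM. DMSO had 1648 CPM in replicate 2, against 2295 CPM in replicate 1, and 2447 CPM in replicate 3. AKR1C2 averaged 390 ± 93.1 CPM in replicate 2 and 661 ± 174 CPM in replicate 1, and AKR1C3 283 ± 24.3 and 374 ± 39.2 CPM (SD, n = 4 each), with log2 fold changes of -0.76 and -0.40. Per length, AKR1C1 stood at 87.8 RPKM in replicate 2 and 181 RPKM in replicate 1, and AKR1C2 at 58.2 and 99.7 RPKM. These near-identical genes share reads, with 73.5% of AKR1C1 and 63.4% of AKR1C2 exon reads unique to 1 place. On unique exon reads alone the log2 fold changes were -1.02 for AKR1C1 and -0.77 for AKR1C2.

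Of 19 tested aldo-keto reductase and steroid genes 6 fell and 2 rose, with a median of -0.19. Those that rose were CYP19A1, aromatase (log2 fold change 0.86), and AKR1D1, a bile acid reductase (0.54). In the list of NRF2 and antioxidant genes 15 of 34 tested members fell and 3 rose, with a median of -0.09 and pair medians of -0.14 to -0.06. The 15 include the aldo-keto reductases AKR1C1, AKR1C2, AKR1C3, AKR1B10 and AKR1B1. The epoxide hydrolase EPHX1 averaged 54.5 CPM in replicate 2 and 82.0 CPM in replicate 1 (log2 fold change -0.57), and the peroxiredoxin PRDX1 379 and 484 CPM (-0.35). KEAP1, the repressor of NRF2, fell with them, at 57.5 and 81.8 CPM (-0.50), and NQO1, a quinone reductase, by less, at 711 and 787 CPM (-0.15). HMOX1, heme oxygenase 1, rose slightly, at 42.5 ± 10.4 and 35.2 ± 6.79 CPM (0.26, edgeR adjusted p = 0.0227). GPX2 (-0.67) and SLC7A11 (-0.30) fell as well, and in both fewer than 50% of reads were unique.

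Stress genes of the endoplasmic reticulum and of amino acid shortage were lower in smaller numbers. Of 28 unfolded protein response genes 9 fell and 2 rose (median -0.08), among them XBP1, the transcription factor of that response, at 242 CPM in replicate 2 and 287 CPM in replicate 1. Of 40 ATF4 response genes 11 fell and 2 rose (median -0.07), with the serine synthesis enzyme PSAT1 at 298 and 351 CPM. ASNS, asparagine synthetase, did not pass, at 121 ± 14.1 CPM in replicate 2 and 131 ± 16.2 CPM in replicate 1 (edgeR adjusted p = 0.0646). Of 31 p53 targets 8 fell and 3 rose (median -0.12), and of 35 proteasome genes 8 fell and 1 rose (median -0.03). The proteasome share of 22.9% lower stands beside 9.72% over all genes tested and 16.0% in the top quartile by mean CPM. With DMSO in the fit the ATF4 list kept 1 lower call, the unfolded protein list 2 and the p53 list 4. The ATF4 list had 7 lower calls without any 1 library of TCEP 25 µM, TCEP 250 µM or TCIPP 2.5 µM. The p53 list had 3 or 5 without TCIPP 2.5 µM replicate 1 or 2, and 4 without either TCIPP 25 µM library. In DMSO the medians of replicate 2 minus replicate 1 were 0.05 for the ATF4 list, 0.04 for the unfolded protein list and -0.08 for the p53 list. The proteasome list had -0.19, with 6 of 35 members positive.

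**Figure D3:**
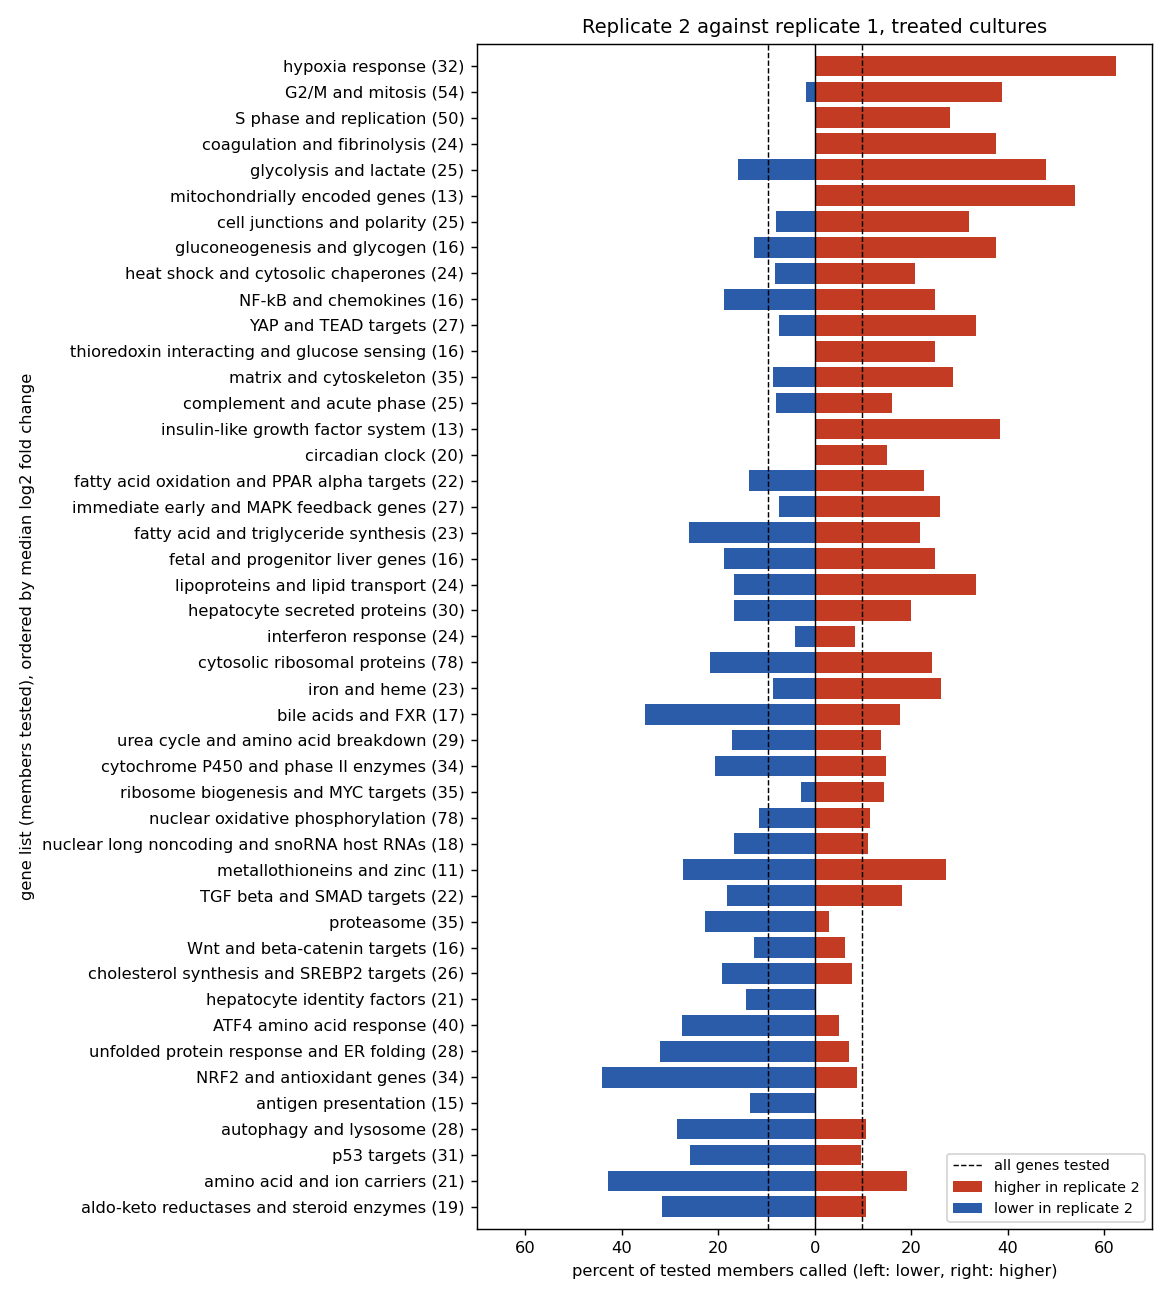
Percent of tested members called higher (right, red) or lower (left, blue) in replicate 2 against replicate 1, for the lists with 10 or more tested members (number in brackets), ordered by median log2 fold change. Dashed lines mark the shares over all genes tested, 9.73% higher and 9.72% lower; hypoxia response stands out at 62.5% higher and NRF2 and antioxidant genes at 44.1% lower.

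Liver secretory products moved in both directions. ALB, albumin (hg19 chromosome 4, 74262831 to 74287129, plus strand), had 16124, 15932, 13820 and 15347 CPM in replicate 2, against 18540, 20422, 18146 and 21251 CPM in replicate 1. The ranges were apart (log2 fold change -0.36 ± 0.0346 SE, edgeR adjusted p = 2.39e-06), and DMSO gave 18054 CPM in replicate 2, against 22122 CPM in replicate 1. A2M, the protease inhibitor alpha-2-macroglobulin, averaged 5608 ± 838 CPM in replicate 2 and 8857 ± 1989 CPM in replicate 1 (log2 fold change -0.65 ± 0.0389 SE, edgeR adjusted p = 1.71e-08). AFP, the fetal counterpart of albumin, was at 1425 ± 103 and 1637 ± 68.1 CPM (-0.21), and APOA1, the main protein of high-density lipoprotein, at 735 ± 54.8 and 827 ± 41.1 CPM (-0.17, edgeR adjusted p = 0.00771). SERPINA1 went the other way, at 8856, 8025, 9552 and 8431 CPM in replicate 2, in the order of treatments used above. Replicate 1 had 7734, 7444, 7976 and 7894 CPM (scaled to library totals). Over the list of hepatocyte secreted proteins 6 rose and 5 fell of 30 tested.

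The clotting genes that were called moved in 1 direction. Of 24 tested coagulation and fibrinolysis genes 9 rose and 0 fell, with a median of 0.13, and 19 had a positive log2 fold change. Over the main and alternative fits 1 to 11 were called higher and 0 to 1 lower. FGG, a fibrinogen chain, averaged 984 ± 102 CPM in replicate 2 and 843 ± 159 CPM in replicate 1 (log2 fold change 0.23, edgeR adjusted p = 0.000803), FGA, another chain, 855 and 760 CPM (0.17), and TFPI, the inhibitor of tissue factor, 697 and 527 CPM (0.41, 57.3% unique reads). FGB, a further fibrinogen chain, was mixed, at 235, 212, 190 and 196 CPM in replicate 2, in the order of treatments used above. Replicate 1 had 235, 199, 198 and 161 CPM (scaled to library totals). The list's DMSO median was 0.10. Of 21 tested hepatocyte identity factors 0 rose and 3 fell (14.3%, beside 9.72% over all genes tested). HNF4A, a master regulator on that list, did not pass (edgeR adjusted p = 0.861), at 219 CPM in replicate 2 and 217 CPM in replicate 1.

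Metallothioneins, the cysteine-rich binders of zinc and copper, split by gene. MT2A had 152, 143, 193 and 141 CPM in replicate 2, against 89.9, 90.6, 101 and 87.3 CPM in replicate 1. Replicate 1 was nearly level across treatments and replicate 2 above it in each (log2 fold change 0.76 ± 0.0480 SE, edgeR adjusted p = 2.34e-08). DMSO had 126 CPM in replicate 2 and 96.2 CPM in replicate 1. MT1E averaged 52.2 ± 8.39 and 31.5 ± 5.28 CPM (0.73). MT1F, at 0.929 and 2.29 CPM, was lower (-1.28, edgeR adjusted p = 0.0144), and so was SLC39A14, a zinc and manganese importer, at 664 and 1046 CPM (-0.64). In all, 3 of 11 tested metallothionein and zinc genes rose and 3 fell.

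The MT2A promoter is shown for its metal response element cores, TGCNCNC or the reverse complement GNGNGCA in capitals, over the 250 bases before the start (RefSeq GRCh38.p14, chr16:56608334-56608583, plus strand, 5′ to 3′).
MT2A: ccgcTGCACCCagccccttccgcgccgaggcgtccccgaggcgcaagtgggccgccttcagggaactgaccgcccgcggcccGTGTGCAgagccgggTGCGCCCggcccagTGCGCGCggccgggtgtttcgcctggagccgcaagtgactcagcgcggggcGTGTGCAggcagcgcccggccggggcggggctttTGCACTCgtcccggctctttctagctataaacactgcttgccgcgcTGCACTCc
There were 7 matches that do not overlap. This loose core was found in 14475 of 27305 genes (53.01%), so a single match is common.

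Several of the largest differences were in genes outside these groups. Of the 31 genes named for their size or p, 16 were higher and 15 lower in replicate 2. BCAS1 averaged 14.2 ± 2.75 CPM in replicate 2 and 5.63 ± 2.07 CPM in replicate 1 (log2 fold change 1.34), SLC51A, a bile acid exporter subunit, 12.5 ± 5.48 and 4.97 ± 1.71 CPM (1.32), and the growth factor PDGFB 29.5 ± 7.40 and 14.0 ± 4.12 CPM (1.05). The scaffold AKAP12 averaged 463 ± 107 and 240 ± 97.0 CPM (0.98). Among genes that were lower, the dioxin-inducible oxidase CYP1A1 averaged 3.26 ± 0.657 CPM in replicate 2 and 7.70 ± 2.94 CPM in replicate 1 (-1.19), the homeobox gene HOXD1 17.3 ± 7.48 and 38.7 ± 19.6 CPM (-1.13), the repressor GFI1 12.6 ± 4.52 and 27.2 ± 10.5 CPM (-1.11) and PGF, placental growth factor, 9.43 ± 3.15 and 19.1 ± 4.98 CPM (-1.03). IKBKAP, a subunit of the Elongator complex, averaged 249 ± 35.4 and 406 ± 68.3 CPM (-0.70). All log2 fold changes in this paragraph passed in edgeR, with adjusted p-values of 0.00051 for CYP1A1 and below for the others.

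**Figure D4:**
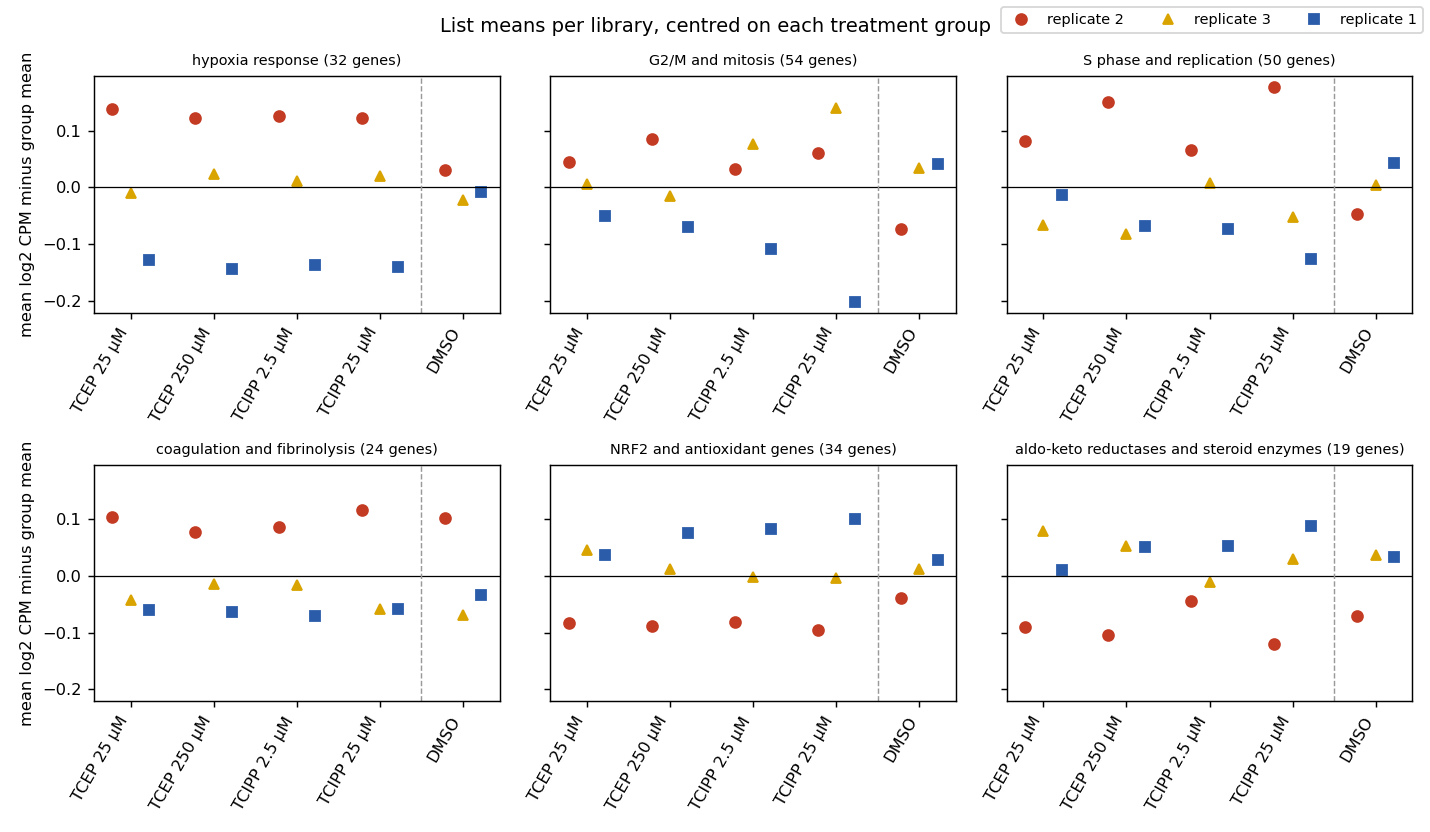
Mean log2 CPM of 6 gene lists in each library after subtraction of the library's own treatment group mean, with replicate 2 as circles, replicate 3 as triangles and replicate 1 as squares. In treated cultures replicate 2 is the highest for hypoxia and coagulation genes and the lowest for NRF2 and aldo-keto reductase genes. For both cell division lists replicate 2 is above replicate 1 in each treatment and lowest in DMSO.

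The DMSO cultures share no library with the treated pairs and so give a separate look at the same numbers. Over all 2315 called genes, DMSO replicate 2 minus replicate 1 had the sign of the treated difference in 1187 (51.3%), beside 48.3% of all genes tested. The share depended on size. It was 479 of 1076 (44.5%) for absolute log2 fold changes under 0.25, 472 of 898 (52.6%) from 0.25 to 0.5, 192 of 285 (67.4%) from 0.5 to 1 and 44 of 56 (78.6%) at 1 or more. Of the 31 genes named for size or p, 29 had the same sign in DMSO. DMSO gives 1 difference per gene with no replicate, so no single gene was tested there.

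**Figure D5:**
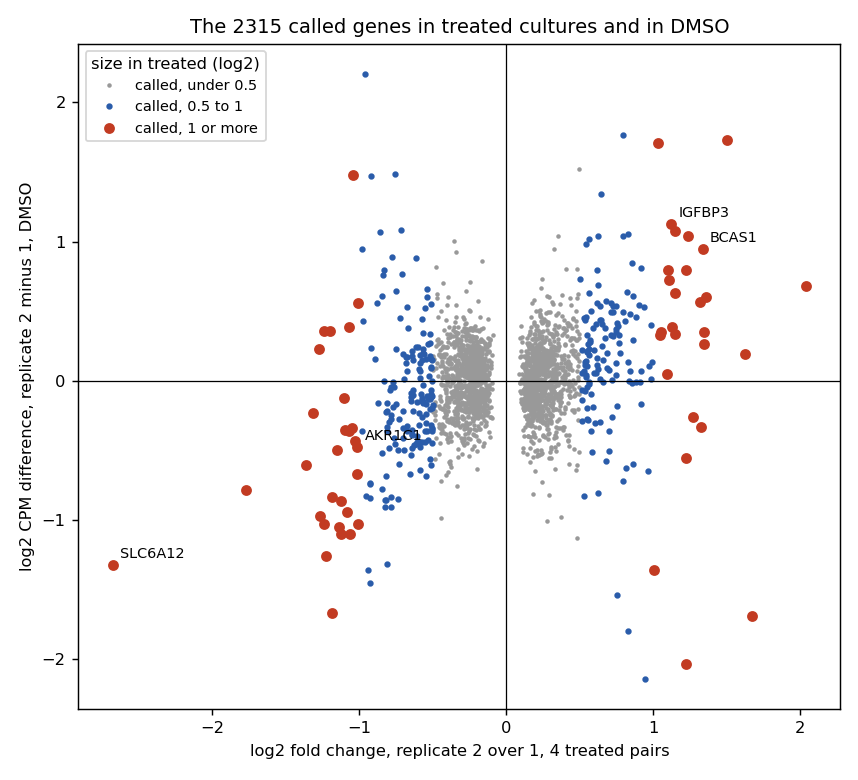
Each point is 1 of the 2315 genes called in treated cultures: log2 fold change of replicate 2 over 1 in the 4 treated pairs (horizontal) against the log2 CPM difference of replicate 2 minus 1 in DMSO (vertical). Treated differences of 1 or more (red) fall mostly in the quadrants of equal sign, 44 of 56, and those under 0.5 (grey) lie around 0.

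Technical measures moved with the contrast in part. By GC content of the transcripts, the median log2 fold change ran from 0.06 in the lowest quartile of genes through 0.03 and -0.01 to -0.09 in the highest, where 5.01% of genes were called higher and 16.9% lower. Fitted with a GC offset, 2133 genes were called, of which 1758 were among the 2315. Under that offset the hypoxia list had 21 genes higher and 1 lower, G2/M 16 and 2, S phase 13 and 0, and the NRF2 list 3 and 14. Calls were more frequent in abundant genes, at 35.6% of the top quartile by mean CPM and 6.25% of the lowest. Thinned to 5353963 reads per library, 1854 genes were called, 1743 of them among the 2315. Markers of other cell types also moved in part. The summed fibroblast and stellate markers ran from 50.6 to 60.6 CPM in replicate 2 and 61.1 to 68.6 CPM in replicate 1, with 10 and 8 of 15 genes at 0. The summed cholangiocyte markers ran from 1369 to 1519 CPM in replicate 2 and 1589 to 1727 CPM in replicate 1, with 2 of 11 at 0 in each, although 3 of 7 tested members were called higher and 1 lower. SPP1 alone had 739 to 912 CPM of that sum in replicate 2 and 997 to 1185 CPM in replicate 1. The summed macrophage and leukocyte markers ran from 4028 to 4661 and 4292 to 4692 CPM, with 6 and 7 of 14 at 0. LYZ alone had 3975 to 4617 and 4256 to 4667 CPM of it, so that sum is nearly 1 gene. The endothelial markers ran from 3.77 to 5.97 and 2.99 to 4.65 CPM, with 4 and 5 of 10 at 0. The part of GC content, depth and these markers in the result was not tested beyond these fits.

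Whether the difference between rounds itself depended on treatment was tested with interaction terms, and their counts were not stable. An interaction of the replicate number with compound was called in 3 of 11901 genes (0.0252%), RBAK, EIF3CL and CLDN12, and one with concentration level in 5 (0.042%), RPS28, HSPA1B, HSPA1A, RPS17L and RGPD5. At an unadjusted p under 0.05 there were 484 and 850 genes in edgeR, and DESeq2 called 1 in each. With no filter on low counts 62 and 113 genes were called. Leaving out any 1 of the 8 libraries raised the counts, to between 12 (without TCIPP 25 µM replicate 1) and 134 (without TCIPP 2.5 µM replicate 2) for compound and between 18 (without TCIPP 25 µM replicate 1) and 214 (without TCEP 250 µM replicate 2) for level. A small count in a fit of 8 libraries does not show that the treatments were alike. All 8 have few unique reads, from 0% for RPS17L to 26.2% for HSPA1B, so their counts are uncertain where near-identical copies exist.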

How the data were processed

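Per the labels' protocols, poly-A RNA was made into TruSeq stranded libraries and sequenced as paired-end reads. Per the series' design text, the authors mapped and counted reads with CLC Genomics Workbench against hg19. No source used here gives the software version or says whether strand was used in counting, so a gene and its antisense partner cannot be told apart. The deposited tables hold whole-number counts per gene (total and unique exon reads, gene reads, intron reads) and RPKM values, which the authors computed from exon length and mapped reads, per the file headers. RPKM was used only to set levels of different genes side by side. The deposited column of normalized expression values was not used.

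Replicate 2 was tested against replicate 1 in the 8 libraries on their total exon reads, with edgeR 4.0.16 under R 4.3.3: TMM scaling, edgeR's filter on low counts by replicate number (11901 genes kept), treatment as a block, the quasi-likelihood F-test and Benjamini-Hochberg adjustment, called at an adjusted p under 0.05. The 12 treated libraries entered 1 further fit (12371 genes). Standard errors are the absolute log2 fold change over the square root of F. CPM are TMM-scaled, except for the marker levels, which use library totals; means ± SD run over the 4 treatments, so the SD holds the differences between treatments. P-values of the replicate comparisons measure how far the steps between numbers varied over the 4 treatments, in separately seeded cultures. Each number occurs once per treatment, and same-number treated libraries deviated together. If a number marks something shared, each side holds 1 instance of it, and the spread between such instances was not measured. Library depth ran from 5353963 to 26771751 exon reads, and floors cover counting error only.

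The numbers pair the treated libraries: the deviations of same-number libraries correlated above 0.1 in all 18 pairs. This comes from the data and not from the labels. Named genes were the 12 largest changes and 6 smallest p in each direction with at least 5 CPM, the same sign in 4 pairs and at least 50% unique reads, up to 4 called members per list, and fixed genes such as ALB and MKI67; other genes were named from the lists after their values were seen. The 50 gene lists hold 1482 genes, of which 1475 were matched and 1190 tested. Members and lists were chosen with earlier results of these data known. A gene that met the naming rule is not reported here. Of the gene identifiers, 96.1% matched the gene name table. Alternatives were DESeq2 1.42.0, limma-voom (limma 3.58.1), other scalings, filters and read columns, offsets for GC and exon length, thinning, fits with no block or with DMSO added, and leaving out each library.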

Additional observations from a re-analysis of the deposited data

Results flagged for a closer look

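For 197 values (named genes and library measures), the 4 pair differences of replicate 2 minus replicate 1 were searched for a pair far from the other 3; chance alone flags about 1 in 20 such sets of 4. The log2 difference of CYR61 was 1.33 in TCIPP 25 µM, and 0.78 to 0.86 in the other pairs. GPR133 gave 1.17 in TCIPP 25 µM, and 0.85 to 0.89 elsewhere. KRT19 gave 0.42 in TCIPP 25 µM, and 0.20 to 0.23 elsewhere. SLC6A12 stood at -1.63 in TCIPP 2.5 µM, the smallest step, and at -2.88 to -2.75 in the other pairs. CPT1A, the carnitine transferase of fatty acid oxidation, gave 0.67 in TCIPP 2.5 µM, and 0.42 to 0.44 elsewhere. In TCEP 25 µM the step was smaller than in the others for APOC3 (0.15), BAX (-0.24) and DSG2 (0.26). All of these pairs kept the sign of the other 3.

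The fold of replicate 2 over replicate 1 differed between the compounds for CLDN12, a tight junction gene, by -0.71 on the log2 scale, TCIPP minus TCEP (edgeR interaction, adjusted p = 0.0206). Its pair differences were -1.04 and -0.98 with TCIPP at 2.5 and 25 µM and -0.34 and -0.26 with TCEP at 25 and 250 µM, and 6.23% of its reads were unique. In all, 3 genes were called for an interaction with compound and 5 for one with concentration level, against 62 and 113 with no filter on low counts and 12 to 134 and 18 to 214 without single libraries.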

How the results depend on the processing

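The alternatives kept the direction of nearly every named gene: of 4369 alternative values over 191 genes, 3962 stayed on the same side of the threshold, 401 lost the call, 4 gained it and 2 turned sign. Those 2 were FABP1 (-0.011) and CEBPB (0.047) with DMSO added to the fit. DMSO added also turned the list medians of fatty acid oxidation (-0.018), iron and heme (-0.0025) and hepatocyte identity factors (0.00096), and the GC offset those of hepatocyte identity factors (7.0e-05) and ribosomal proteins (-0.00041). In all, 16 of 49 list medians lay on the other side of 0 under some alternative, all from main values within 0.0652 of 0; the farthest were metallothioneins and zinc (up to 0.15, main -0.01) and bile acids and FXR (down to -0.12, main 0.02), and the insulin-like growth factor median went down to -0.02 (main 0.06).

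Counts of calls moved more. For replicate 2 against 1, 3 against 1, 3 against 2, any replicate difference and any treatment difference, DESeq2 called 714, 974, 1255, 2025 and 1077 genes, and the fits with DMSO added 717, 680, 989, 1758 and 1113. With treatment not blocked, that is with libraries unpaired by treatment, the 4 replicate comparisons had 207, 203, 688 and 1024 calls. The treatment comparison without the replicate number as a block had 2 (added after seeing the data). All 714 DESeq2 calls and all 207 unpaired calls were among the 2315, as were 716 of the 717. Replicate 3 against 1 had 1161 calls after thinning and 1063 with the GC offset. Leaving out single libraries gave 1332 to 2067, 771 to 1751, 1506 to 2538, 2613 to 3354 and 1095 to 1897 calls for the 5 comparisons. The interaction counts varied widely: with compound, 1 call by DESeq2, 62 with no filter, 0 on unique exon reads, 5 on gene reads and 12 to 134 without single libraries; with concentration level, 1, 113, 27, 0 and 18 to 214, and 3 with library totals. The cause was not tested.

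Leaving out single pairs, replicate 2 minus replicate 1 ranged from -1.93 to -0.856 M exon reads, -0.144 to 0.0824 percentage points of intron reads, 0.178 to 0.390 of mitochondrial reads and 0.0672 to 0.174 of unique reads. The median same-number correlation was 0.314 to 0.370 and the DMSO sign share 52.4% to 52.5% under other scalings. Depth limits genes with few reads most: 6.25% of genes in the lowest quartile by CPM were called.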

Other observations

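In treated cultures, ribosomal protein, respiratory and proteasome genes were called lower more often than higher in replicate 3 against each other round. Of 78 tested cytosolic ribosomal protein genes, 37 were lower and 0 higher in replicate 3 than in replicate 1 (median log2 fold change -0.11), and 36 were lower and 7 higher than in replicate 2 (median -0.10). Between replicates 2 and 1, 19 were higher and 17 lower. Of 78 nuclear genes of oxidative phosphorylation, 23 were lower and 6 higher in replicate 3 than in replicate 1, and 28 lower and 8 higher than in replicate 2. Of 35 proteasome genes, 15 were lower and 0 higher in replicate 3 than in replicate 1, and 9 lower and 2 higher than in replicate 2. The DMSO libraries did not share this for the ribosomal protein and oxidative phosphorylation genes. The mean log2 CPM of the ribosomal protein genes was 9.43 in replicate 3, against 9.41 in replicate 2 and 9.35 in replicate 1. That of the oxidative phosphorylation genes was 6.27, against 6.16 and 6.24. In TCEP 250 µM the replicate 3 means of these genes, 9.46 and 6.21, were also level with those of replicate 2, 9.45 and 6.21. The proteasome genes had DMSO means of 6.96 in replicate 3, 6.84 in replicate 2 and 7.02 in replicate 1. In TCEP 250 µM their means were 6.88, 6.90 and 6.96 in the same order. Both comparisons share the replicate 3 libraries, which held 8890426 to 26771751 exon reads, and the part of depth in these values was not tested. Ribosomal protein genes have many near-identical copies, so their counts are uncertain.

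SLC16A6, a monocarboxylate carrier chosen here after its values were seen, averaged 50.3 CPM in replicate 2 and 12.3 CPM in replicate 1 (log2 fold change 2.04), with fewer than 50% of its reads unique.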
